A study of Mus musculus with 2 samples.

Results

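The 36 genes described here build the contractile apparatus of skeletal muscle: myosin heavy and light chains, actins, troponins, tropomyosins, titin and its partners, and a few proteins of energy supply and calcium release. They were taken by gene symbol, and all 36 were among the 32285 genes of a single-cell matrix from mouse knee joints at postnatal day 7. The joints came from the hindlimbs of Col12a1 KO mice, in which the gene coding for collagen XII, a protein on the surface of collagen fibrils, is knocked out, and of WT mice, and pups of both sexes were used. The labels name no strain. Skin and paws had been taken off, and collagenase II (4 mg/mL, 6 h) freed the cells. Of the 2 experiments that the labels describe, the earlier had 1 Col12a1 KO and 1 WT library and the later had 2 of each, and all were merged into 1 matrix.

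Barcodes in that matrix end in 1 or 2, and nothing in the sources used here ties an ending to a genotype. All values therefore describe a mixture of Col12a1 KO and WT cells, as 1 sample without replicates. Values for the 2 barcode sets are given to show how far a level is alike in both, and no p-value is given. The sets may differ in genotype or in experiment, and a difference between them cannot be told apart from either. After filtering, 15171 cells with 215888825 unique molecular identifiers (UMIs, counts of single RNA molecules) remained, 7158 in set 1 (median 10960.5 UMIs per cell) and 8013 in set 2 (median 9623). Between the sets, 40 barcode sequences were shared, 14 of them among the cells used. Levels are UMIs per 1000000 UMIs of a cell class (CPM) with 95% Poisson intervals, which cover counting error only. Because the libraries read the 3' end of each RNA, UMIs of different genes were compared without scaling by length.

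In a sarcomere, thick filaments of myosin pull on thin filaments of actin when calcium lifts the troponin and tropomyosin block. Most parts come in several isoforms from separate genes. As mouse limb muscle matures after birth, embryonic and neonatal isoforms, and cardiac ones borrowed by developing muscle, give way to adult fast or slow isoforms. Satellite cells, the stem cells of muscle, divide and give rise to myoblasts, which leave the cell cycle and fuse into fibres.

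Muscle cells were named without using any of the 36 genes, which had also been kept out of the clustering. In all, 1524 cells were muscle-like. The 253 myofibre-like cells (102 in set 1 and 151 in set 2) had all 12 of their naming markers above 0, with a summed level of 20356 CPM. The leading genes of that cluster outside the 36 included Eno3, Pgam2 and Pvalb. The 408 differentiating myoblast-like cells (125 and 283) were led by Myog, the transcription factor that starts terminal differentiation, and by Dpp6, Rbm24, Mymk and Gm28653. When muscle cells were clustered again on their own, 284 of these cells fell in a group led by Myog. Another 59 fell in a group led by Gal and Ifitm3, 24 in the group with the most Pax7, and the rest elsewhere. The 863 satellite-like cells (253 and 610) formed a cluster led by Pax7, Fgfr4, Msc and Calcr and a smaller one led by histone genes and Myod1. Red cell RNA was present in each of these classes: the 8 erythroid markers summed to 22094 CPM in myofibre-like, 8604 CPM in myoblast-like and 11021 CPM in satellite-like cells, and their part in the results was not tested.

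Promoter sequences are shown for 4 members whose shares within their isoform families differ below between myofibre-like and myoblast-like cells: both alpha-actins and the heavy chains Myh4 and Myh8. Each run is the 250 bases before the RefSeq start (GRCm38.p6, the build of the files), 5′ to 3′ on the gene's strand, at chr8:123894776-123895025 (minus strand) for Acta1, chr2:114052876-114053125 (minus) for Actc1, chr11:67237562-67237811 (plus) for Myh4 and chr11:67276874-67277123 (plus) for Myh8. Capitals mark matches, on either strand, to TATAAA, to the MEF2 site, and to the CArG box, which is the motif of serum response factor.
Acta1: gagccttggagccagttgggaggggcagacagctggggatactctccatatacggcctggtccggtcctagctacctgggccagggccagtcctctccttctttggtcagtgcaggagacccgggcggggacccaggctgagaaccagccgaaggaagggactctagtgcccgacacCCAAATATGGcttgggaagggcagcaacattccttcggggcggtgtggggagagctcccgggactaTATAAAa
Actc1: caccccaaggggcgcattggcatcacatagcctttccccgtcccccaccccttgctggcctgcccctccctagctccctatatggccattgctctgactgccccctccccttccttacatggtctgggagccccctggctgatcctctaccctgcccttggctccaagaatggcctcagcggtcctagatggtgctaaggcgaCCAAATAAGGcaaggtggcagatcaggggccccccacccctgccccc
Myh4: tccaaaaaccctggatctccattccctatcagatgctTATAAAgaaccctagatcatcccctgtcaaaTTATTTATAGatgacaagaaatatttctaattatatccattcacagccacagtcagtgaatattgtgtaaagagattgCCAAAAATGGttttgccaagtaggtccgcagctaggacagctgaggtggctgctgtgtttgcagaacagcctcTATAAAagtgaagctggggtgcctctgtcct
Myh8: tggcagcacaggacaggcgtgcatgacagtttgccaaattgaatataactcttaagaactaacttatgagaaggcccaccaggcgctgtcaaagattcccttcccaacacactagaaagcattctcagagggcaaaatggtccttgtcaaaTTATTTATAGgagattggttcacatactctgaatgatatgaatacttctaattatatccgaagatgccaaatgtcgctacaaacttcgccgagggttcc
The CArG match begins at position -73 in Acta1, -47 in Actc1 and -104 in Myh4, counted back from the RefSeq start. Other annotations place some starts elsewhere. In GENCODE M21 Actc1 reaches chr2:114053548, so the window shown lies inside that gene, and Myh4 begins at chr11:67238029. In Myh4 and Myh8 a TATAAA match on the other strand lies inside the MEF2 match. RefSeq promoters were matched for 31 of the 36 genes. A CArG match stood in 5 of these (16.1%: Acta1, Actc1, Myl3, Myh4 and Myom1), against 1.40% of all 27025 promoters of that length. A MEF2 match stood in 4 (12.9%: Ttn, Myh1, Myh4 and Myh8), against 3.01% of all promoters. The E-box, CANNTG, stood in 83.9% against 66.0%, and TATAAA in 25.8% against 13.0%. These are matches of letters in a window, and no binding was measured.

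The 36 genes took up a large part of the RNA in myofibre-like cells. They made up 29.7% of the UMIs of the myofibre-like class, and between 1.61% and 42.7% in its cells (median 26.9%). The share was 0.658% in myoblast-like and 0.146% in satellite-like cells, and 0.0852% over all cells that were not muscle. Cells resembling neutrophils, red cell precursors and B cells, which should not make sarcomeres and are called blood classes here, stood at 0.0959%, 0.0546% in set 1 and 0.149% in set 2. Their level is given as a background, and how much of it is free RNA was not tested. Per 100 Acta1 UMIs in set 1, Tpm1 stood at 38.3 in myofibre-like and 276 in erythroid-like cells, and Tnnt1 at 0.434 in myofibre-like and 24.0 in neutrophil-like cells. The satellite-like share was 0.133% in set 1, above the blood value, and 0.152% in set 2, close to it. Although myofibre-like cells were 1.67% of all cells, they held 654192 of the 874131 UMIs of the 36 genes (74.8%). The median myofibre-like cell had UMIs of 20 members at a median depth of 3508 UMIs, the myoblast-like cell 11 at 10977, the satellite-like cell 6 at 10377 and the blood cell 3 at 5469.5.

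**Figure D1:**
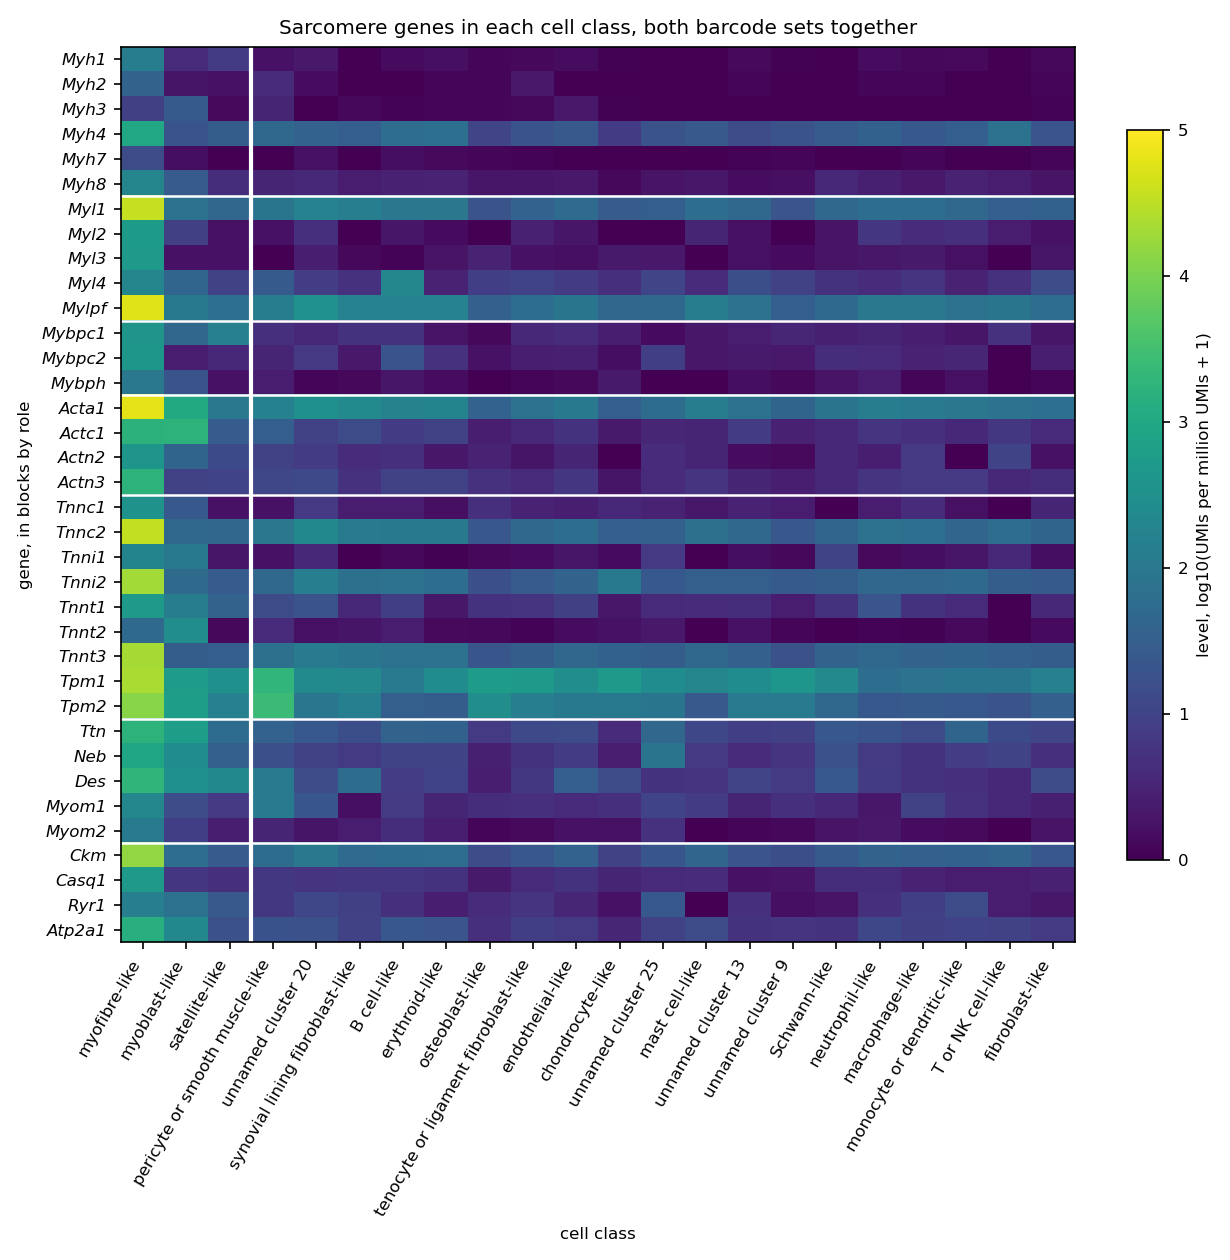
Level of each of the 36 genes (rows, in blocks by role) in each cell class (columns, muscle classes first and the rest by their summed share), as log10 of CPM plus 1, with both barcode sets together. The myofibre-like column is bright for most genes, and outside muscle the pericyte or smooth muscle column stands out for Tpm1 and Tpm2.

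Few genes carried the myofibre-like total. Skeletal alpha-actin (Acta1), the main thin-filament protein, held 20.6% of the 36 genes' UMIs, the fast regulatory light chain Mylpf 18.9% and the fast essential light chain Myl1 12.2%. With fast troponin C (Tnnc2), tropomyosin (Tpm1), fast troponin T (Tnnt3), fast troponin I (Tnni2) and muscle creatine kinase (Ckm), 8 genes held 90.6%. The order differed in myoblast-like cells, where cardiac alpha-actin (Actc1, 25.5%) led, followed by Acta1 (16.5%), titin (Ttn, 9.50%) and Tpm2 (9.01%). In satellite-like cells Tpm1 (22.2%), desmin (Des, 14.4%), Tpm2 (10.5%) and Mybpc1 (10.2%) came first.

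Myofibre-like cells were next set against the other muscle cells, satellite-like and myoblast-like together. A gene was called higher or lower when both sides together had at least 100 UMIs, the ratio of CPM was at least 2 or at most 0.5, and both barcode sets pointed the same way. Of the 36 genes, 31 were higher, 0 were lower and 3 were called neither, while Myh2 and Myh7 had too few UMIs. Over all 10159 genes tested, 8.08% were called higher and 67.4% lower, and the median log2 ratio was -1.72, against 4.83 for the 34 members tested. The heavy share of sarcomere RNA lowers every other gene's CPM in this class, and with the 36 genes taken out of the totals the median over all genes was -1.21 and 32 members were higher. All 12 fast members tested were higher, with a median log2 ratio of 7.57, as were 5 of 6 slow and all 10 shared members. Most myofibre-like UMIs of Myl2, Myl3, Tnnc1, Tnni1 and Tnnt1 lay in 7 cells described below, against 58 of 846 for Mybpc1. Of the 6 embryonic, neonatal or cardiac-type members, 4 were higher, with a median of 2.40.

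The largest ratios were those of the fast troponins and of the light chains Mylpf, Myl1 and Myl3. For slow Myl3 the ratio (633, 368 to 1192) rests on 13 UMIs in other muscle cells. Of its 1080 UMIs in myofibre-like cells, 897 lay in 7 cells described below. Mylpf stood at 55837 CPM (set 1) and 56211 CPM (set 2) in myofibre-like cells, and at 78.9 CPM in the other muscle cells, a ratio of 710.7 (95% interval 673 to 751). Myl1 stood at 35698 and 36431 CPM against 53.8 CPM. Tnnc2, which binds the calcium that starts contraction in fast fibres, stood at 36286 and 34800 CPM against 43.7 CPM, a ratio of 810.4 (754 to 873). Both sets gave close values for these 3 genes. The ratio was 734 for Tnnt3 and 565 for Tnni2, which anchor and inhibit within the fast troponin complex. Creatine kinase, Ckm, which buffers ATP, stood at 15500 CPM with a ratio of 412. Tnnc2 overlaps Ube2c, a cell cycle gene on the opposite strand, but Ube2c had 28 UMIs in myofibre-like cells against 78017 for Tnnc2. The sources used here do not say whether counting used strand, and 19 of the 36 genes overlap a counted gene on the opposite strand.

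Among actins and actinins, Acta1 stood at 55934 CPM (set 1) and 65179 CPM (set 2) in myofibre-like cells, against 419 CPM in the other muscle cells (ratio 146, 143 to 149.7). Actc1, the cardiac alpha-actin that developing skeletal muscle also uses, hardly separated fibres from myoblasts: it stood at 1579 and 1650 CPM in myofibre-like cells and at 1671 and 1686 CPM in myoblast-like cells. Actn3, the alpha-actinin of fast Z-discs, stood at 1591 and 1806 CPM in myofibre-like cells, with a ratio of 190.2 to other muscle. Actn2, the alpha-actinin of all fibres, was lower at 387 CPM, with a ratio of 18.2.

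Genes of the giant and scaffold proteins were less restricted to fibres. Ttn, the spring that spans from Z-disc to M-band, stood at 1553 CPM (set 1) and 1820 CPM (set 2) in myofibre-like cells, against 625 CPM in myoblast-like and 58.8 CPM in satellite-like cells. Nebulin (Neb), which runs along the thin filament, stood at 916, 264 and 33.0 CPM in the same order of classes. Des, the muscle intermediate filament, stood at 1843, 327 and 210.2 CPM. For Ryr1, the calcium release channel, the ratio of myofibre-like to other muscle cells was 3.40, whereas it was 16.8 for Atp2a1, the fast calcium pump, and 118 for Casq1, the calcium store protein. The M-band proteins Myom1 and Myom2 stood at 201 and 118 CPM in myofibre-like cells. Myom1 overlaps Myl12a on the opposite strand, which had 873 UMIs in these cells against 442 for Myom1.

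The 3 genes called neither higher nor lower were all isoforms of early or slow muscle. Myh3, embryonic heavy chain, stood at 7.72 CPM in myofibre-like cells and 8.29 CPM in other muscle cells. Tnnt2, cardiac troponin T, stood at 50.4 CPM in myofibre-like cells and 89.4 CPM in other muscle cells, a ratio of 0.564 (0.461 to 0.684). Tnni1, slow troponin I, had a ratio of 5.13, but of 0.914 in set 1 and 11.2 in set 2, so the sets pointed different ways.

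**Figure D2:**
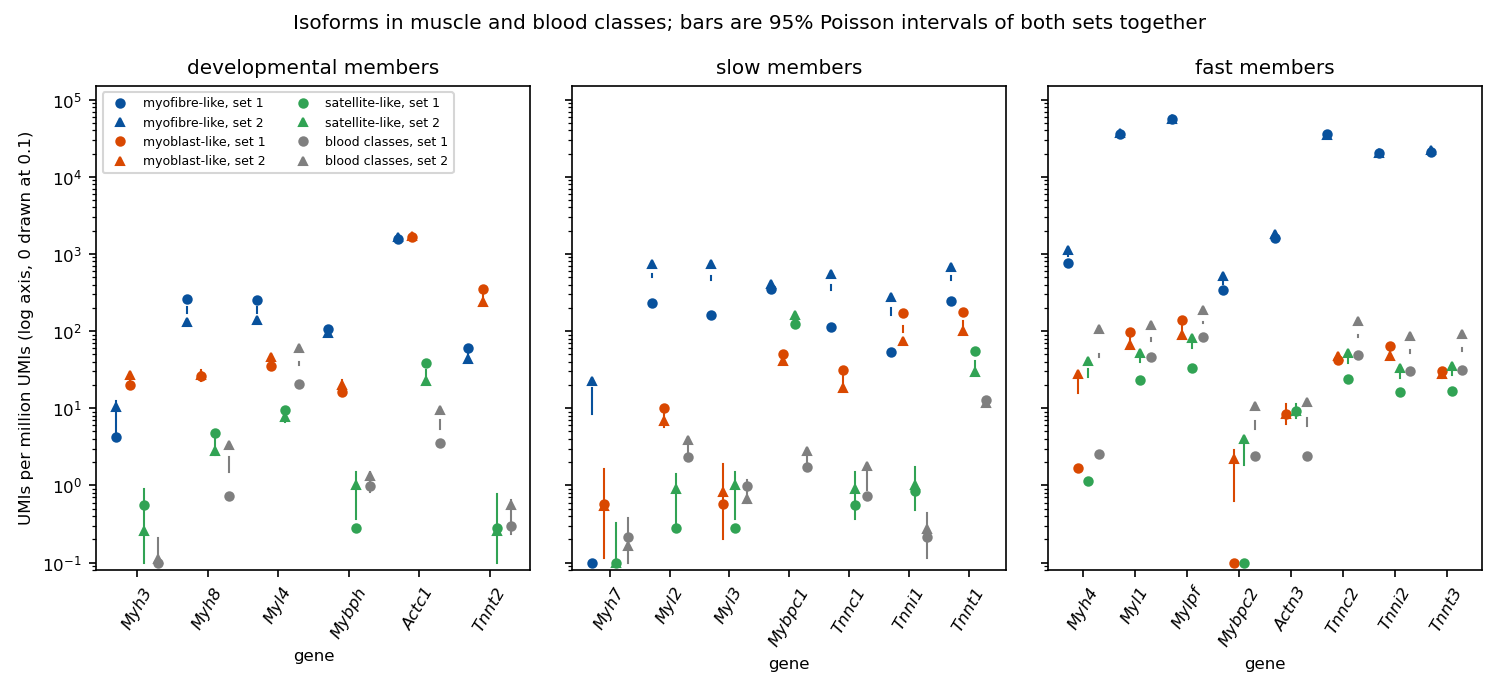
Level of embryonic, neonatal or cardiac-type members (left, headed developmental), slow members (middle) and fast members (right) in CPM on a log axis, in the 3 muscle classes and the blood classes. Circles are barcode set 1, triangles are set 2 and bars are 95% Poisson intervals of both sets together; fast members sit far above the other classes in myofibre-like cells, whereas Actc1, Tnnt2 and Tnni1 in myoblast-like cells come close to or exceed the myofibre-like level.

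The step before fibre formation was examined by setting myoblast-like against satellite-like cells. Of the 36 genes, 18 were higher in myoblast-like cells, 1 was lower, 9 were within the limits and 8 had too few UMIs. Over all 9874 genes tested, 4.67% were called higher and 17.0% lower. All 6 embryonic, neonatal or cardiac-type members were higher (median log2 ratio 5.25), as were 8 of 10 shared members and 3 of 4 slow members tested, but only 1 of 8 fast members, Atp2a1, passed (ratio 12.7). The median log2 ratio was 1.73 over the 28 members tested and -0.20 over all genes.

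Of the members tested at this step, Tnnt2 had the largest ratio and Actc1 the highest level in myoblast-like cells. Actc1 stood at 1671 CPM (set 1) and 1686 CPM (set 2) in myoblast-like cells, against 39.1 and 22.7 CPM in satellite-like cells, a ratio of 60.3 (53.9 to 67.7). After each cell was thinned to 2000 UMIs, Actc1 was found in 67.8% of 404 myoblast-like cells (66.9% in set 1 and 68.2% in set 2), 4.08% of 858 satellite-like cells and 1.497% of 4477 blood cells. Tnnt2 stood at 356 and 237 CPM in myoblast-like cells, whereas satellite-like cells had 3 UMIs in all (0.265 CPM), a ratio of 1043 with a wide counting interval (356 to 5061). Thinned, it was found in 24.3% of myoblast-like cells, in 0 of 858 satellite-like cells (upper 95% limit 0.429%) and in 0.0893% of blood cells. The thinned share with Tnnt2 was 6.70% of 194 myofibre-like cells, and 59 others were too shallow to thin.

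Further early or slow isoforms were also higher in myoblast-like cells, at lower levels. Tnni1 stood at 173 CPM (set 1) and 74.2 CPM (set 2) in myoblast-like cells, against 0.970 CPM in satellite-like cells. Slow troponin C, Tnnc1, stood at 22.5 CPM in myoblast-like cells, with a ratio of 28.3. Mybph, a myosin binding protein, stood at 19.0 CPM there, with a ratio of 23.9. Myh3 stood at 19.9 and 27.3 CPM in myoblast-like cells, against 4 UMIs in all satellite-like cells (0.353 CPM). Myh8, the neonatal heavy chain, stood at 26.1 and 27.0 CPM against 3.44 CPM in satellite-like cells. For Myl4, an embryonic and atrial light chain, the levels were 42.4 CPM and 8.29 CPM.

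Several fast members, by contrast, gave different ratios in the 2 sets. The ratio of myoblast-like to satellite-like cells was 4.21 in set 1 and 1.12 in set 2 for Mylpf, and 4.19 and 1.24 for Myl1. Blood cells of set 2 had more of these RNAs than those of set 1, with Mylpf at 189 against 83.1 CPM. The ratio for Ckm was 6.17 in set 1 and 1.72 in set 2. It was 1.76 and 0.921 for Tnnc2, 1.78 and 0.787 for Tnnt3, and 1.51 and 0.669 for Myh4, on different sides of 1. For Actn3 it was 0.918 and 0.915. With both sets together, Mylpf, Myl1, Tnni2, Tnnc2, Tnnt3 and Myh4 were below the blood level in both classes, Tnnc2 for example at 45.7 CPM in myoblast-like and 42.8 CPM in satellite-like cells against 87.3 CPM in blood classes. In set 1 alone, however, Mylpf, Myl1 and Tnni2 were above the blood level in myoblast-like cells.

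The member that was lower in myoblast-like cells was Mybpc1, the slow myosin binding protein C. It stood at 43.9 CPM in myoblast-like cells, against 123 CPM (set 1) and 161 CPM (set 2) in satellite-like cells, a ratio of 0.294, which a limit of 4-fold in place of 2 no longer calls. Thinned, it was found in 7.67% of myoblast-like, 21.8% of satellite-like and 0.335% of blood cells. When muscle cells were clustered again on their own, Mybpc1 stood at 213 CPM in the group with the most Pax7, at 155 CPM in one led by histone genes, at 58.1 CPM in one led by Gal and Ifitm3, and at 34.0 CPM in the group led by Myog. In myofibre-like cells it stood at 384 CPM.

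The make-up of several isoform families differed between myofibre-like and myoblast-like cells. Of alpha-actin UMIs, Actc1 was 2.58% in myofibre-like and 60.8% in myoblast-like cells (58.4% in set 1 and 61.9% in set 2). Of 261 myoblast-like cells with at least 10 alpha-actin UMIs, 187 had more of Actc1 than of Acta1. Of troponin T UMIs, Tnnt2 was 0.227% in myofibre-like and 64.4% in myoblast-like cells, Tnnt1 2.20% and 28.9%, and Tnnt3 97.6% and 6.71%. Of troponin I, slow Tnni1 was 0.882% in myofibre-like (0.259% in set 1 and 1.35% in set 2) and 66.9% in myoblast-like cells. Of troponin C, Tnnc1 was 1.02% in myofibre-like (0.314% and 1.56%) and 33.0% in myoblast-like cells. Myl4 was 0.510% of essential light chain UMIs in myofibre-like and 35.8% in myoblast-like cells, and Actn2 18.4% and 82.7% of the alpha-actinins. Mybpc1 was 46.6% and 96.7% of Mybpc1 and Mybpc2 together. Single cells leaned to either form: of 49 myofibre-like cells with at least 10 of these UMIs, 28 had mostly Mybpc2 and 20 mostly Mybpc1. Mylpf was the main regulatory light chain in both classes, at 99.1% and 93.1%, and Myl1 the main essential light chain, at 98.2% and 63.6%. Just 8 myoblast-like cells had at least 10 regulatory light chain UMIs, 7 essential light chain and 6 troponin C UMIs. For alpha-actinins it was 4 cells, for Mybpc1 and Mybpc2 2 and for M-band genes 1, so these shares rest on few cells. Myoblast-like Mylpf, Myl1, Tnnc2, Tnni2 and Tnnt3 were also below the pooled blood level, and how much is background was not tested. The tropomyosin and M-band families differed less: Tpm1 was 64.3% and 48.3% of both tropomyosins, and Myom1 63.1% and 65.5% of both M-band genes.

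**Figure D3:**
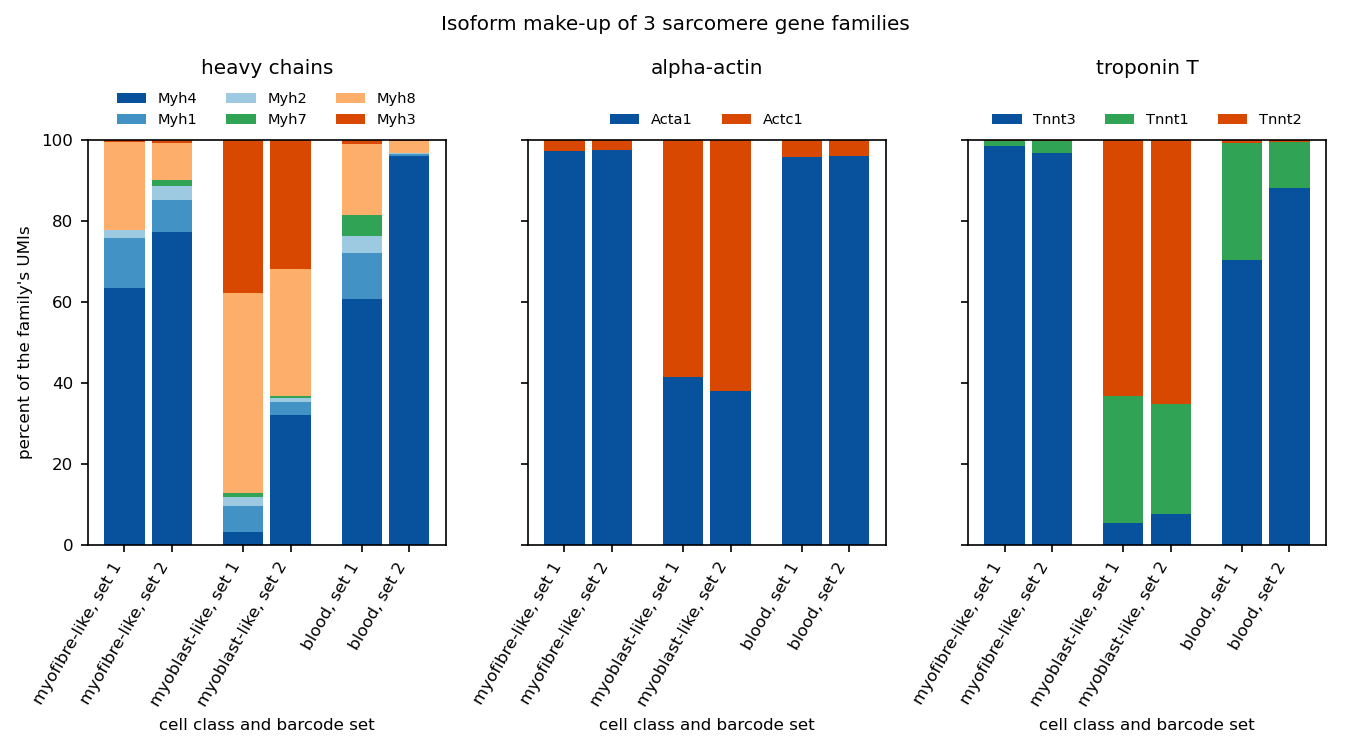
Percent of each family's UMIs held by each isoform, for heavy chains, alpha-actins and troponin T, in myofibre-like, myoblast-like and blood classes of barcode sets 1 and 2. Actc1 and Tnnt2 (orange) fill most of their myoblast-like bars and little of the myofibre-like ones, and blood cells of set 2 show almost only Myh4 among heavy chains.

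Heavy chains, the motors that set a fibre's type, were read at low depth, with 2962 UMIs in myofibre-like and 408 in myoblast-like cells. In the genome Myh3 (chr11:67078300-67102291), Myh2 (chr11:67171027-67197517), Myh1 (chr11:67200052-67224575), Myh4 (chr11:67238029-67260446) and Myh8 (chr11:67277124-67308634) follow each other on the plus strand (mm10, GENCODE M21). Myh4, the IIb isoform of the fastest fibres, was 72.0% of heavy chain UMIs in myofibre-like cells (70.4 to 73.6), 63.5% in set 1 and 77.3% in set 2. Neonatal Myh8 was 14.0% (21.9% and 9.08%), Myh1 9.72%, Myh2 2.77%, slow Myh7 0.945% (0% in set 1 and 1.53% in set 2) and embryonic Myh3 0.574%. Single cells mostly used a main isoform: of 80 cells with at least 10 heavy chain UMIs, more than 50% were Myh4 in 59 cells, Myh8 in 8, Myh1 in 8, Myh2 in 2 and Myh7 in 1. In myoblast-like cells Myh8 was 35.5%, Myh3 33.1% and Myh4 25.5%, and Myh4 was 3.23% of them in set 1 and 32.1% in set 2. Just 6 myoblast-like cells had at least 10 such UMIs, so these shares rest on few cells. The coding sequences of these genes are much alike, and the sources used here do not say how reads that fit several of them were treated.

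Slow fibre RNA was concentrated in a handful of cells. Slow UMIs (Myl2, Myl3, Tnnc1, Tnni1, Tnnt1 and Myh7) were 1.19% of slow and fast UMIs together in myofibre-like cells, 0.472% in set 1 and 1.73% in set 2. Of the 253 cells, 144 had no slow UMI, and the median share was 0. In 7 cells (2 in set 1 and 5 in set 2) the slow share was over 50%, up to 75.9%, and these held 3856 of the 4536 slow UMIs (85.01%). Another 6 cells lay between 5% and 50%. The 7 cells still had fast light chain RNA, with 1014 UMIs of Myl1 and 655 of Mylpf.

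Members that had not entered this split differed in the pooled UMIs of the 7 cells too, at a median of 3558 UMIs per cell. Tpm1 stood at 2811 CPM in the 7 cells (189 UMIs) and at 23744 CPM in the other 246, whereas Tpm2 stood at 11408 and 12877 CPM. Actn3 stood at 208 CPM (14 UMIs) and 1761 CPM, and Actn2 at 1383 CPM (93 UMIs) and 356 CPM. Mybpc1 stood at 863 CPM (58 UMIs) and 369 CPM, while Mybpc2 had 0 UMIs in the 7 cells and stood at 454 CPM in the others. The 7 cells were thus low in the fast forms of these proteins and high in Actn2 and Mybpc1. Of the 17 Myh3 UMIs in myofibre-like cells, 7 were in these 7 cells. Acta1 remained their most abundant member, with 3343 UMIs.

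**Figure D4:**
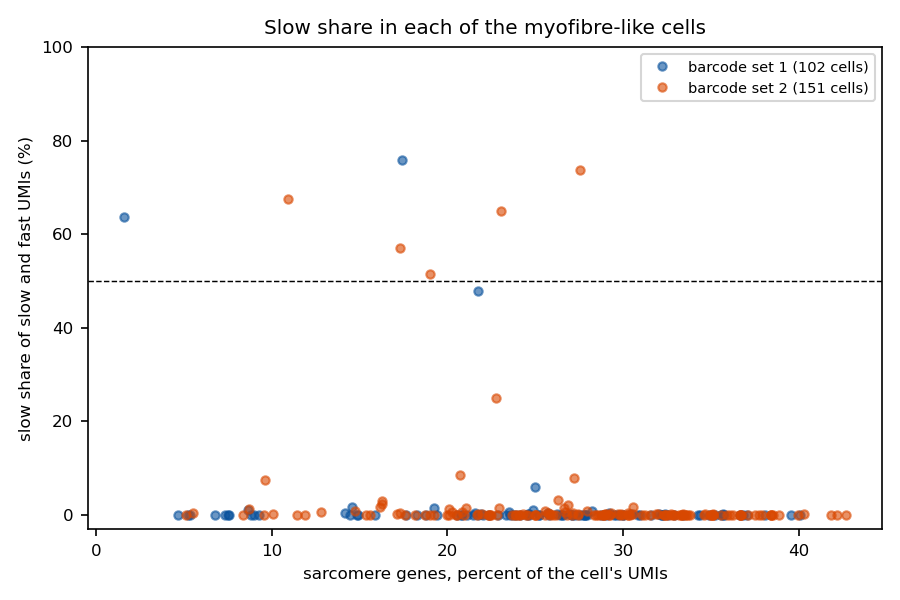
Slow share of slow and fast UMIs (vertical axis, %) against the share of all UMIs from the 36 genes (horizontal axis, %) in each of the 253 myofibre-like cells, coloured by barcode set. The dashed line marks 50%; 7 cells lie above it and nearly all others lie at or close to 0.

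Muscle cells as a whole, 3.73% of whose UMIs came from the 36 genes, were also set against all other cells. All 35 members with enough UMIs were higher in muscle, while 13.0% of all 16899 genes were called higher and 26.8% lower. The largest ratios were 201 for Tnnt2 and 168 for Actc1. The smallest were 2.41 for Myl4 (4.06 in set 1 and 1.64 in set 2), 5.36 for Myh4 (80.1 and 2.84) and 7.43 for Myom1 (9.24 and 6.57).

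Some members stood higher in single classes outside muscle than in the remaining non-muscle cells. Whether doublets or free RNA contributed to these levels was not tested. For each class that was not muscle, a member was counted when its CPM was at least 4 times that of the remaining non-muscle cells in each set, a rule chosen after values were seen. In at least 1 class 12 of 31 members passed, beside 39.3% of 16508 genes, so the share was no higher than the background. Pericyte or smooth muscle-like cells had Tpm2 at 2556 CPM (37.0-fold), Tpm1 at 1931 CPM (7.99-fold), Des at 121 CPM (11.2-fold) and Myom1 at 115 CPM (33.8-fold). Tropomyosins and desmin are known smooth muscle proteins as well. B cell-like cells had Myl4 at 203 CPM (22.7-fold, 1476 UMIs), beside 188 CPM in myofibre-like cells, and Mybpc2 at 18.9 CPM. Unnamed cluster 25, led by Dnah12 and Wdr95, had Neb at 81.6 CPM (16.6-fold) and Ryr1 at 22.8 CPM. Schwann-like cells had Tnni1 at 9.49 CPM, from 11 UMIs.

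Sarcomere RNA in blood cells had the make-up of myofibre-like cells for some members but not for others. Per 100 Acta1 UMIs, Mylpf stood at 99.8 in myofibre-like and 102 in blood cells of set 1, and at 86.2 and 82.2 in set 2. In set 1 Tnnc2 stood at 64.9 and 60.3, Tnnt3 at 37.8 and 38.0 and Ckm at 27.5 and 26.8, but Tpm1 at 38.3 and 132. In set 2 these were 53.4 and 59.3, 33.7 and 39.9, 23.9 and 35.5, and 37.4 and 71.2. For Myh4 the values were 1.36 in myofibre-like and 3.09 in blood cells of set 1, and 1.72 and 46.1 in set 2. In set 2 the value was 46.3 in neutrophil-like cells, 49.3 in erythroid-like cells, 41.3 in those like B cells and 37.5 in fibroblast-like cells. Ttn stood at 2.79 in myofibre-like and 24.2 in blood cells of set 2, Atp2a1 at 2.43 and 13.6, and Neb at 1.44 and 6.51. Mylpf and Myl1 thus stood at nearly the same ratio to Acta1 in both kinds of cell, while Myh4, Ttn, Atp2a1 and Neb stood higher in blood cells, far more so in set 2. Where the RNA in blood cells came from was not tested. The same difference between sets was seen for Myh4 in myoblast-like and satellite-like cells of set 2, at 27.6 and 41.2 CPM there against 106 CPM in blood cells, and at 1.70 and 1.13 CPM in set 1 against 2.52 CPM. In both sets these Myh4 levels were below that of blood cells.

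**Figure D5:**
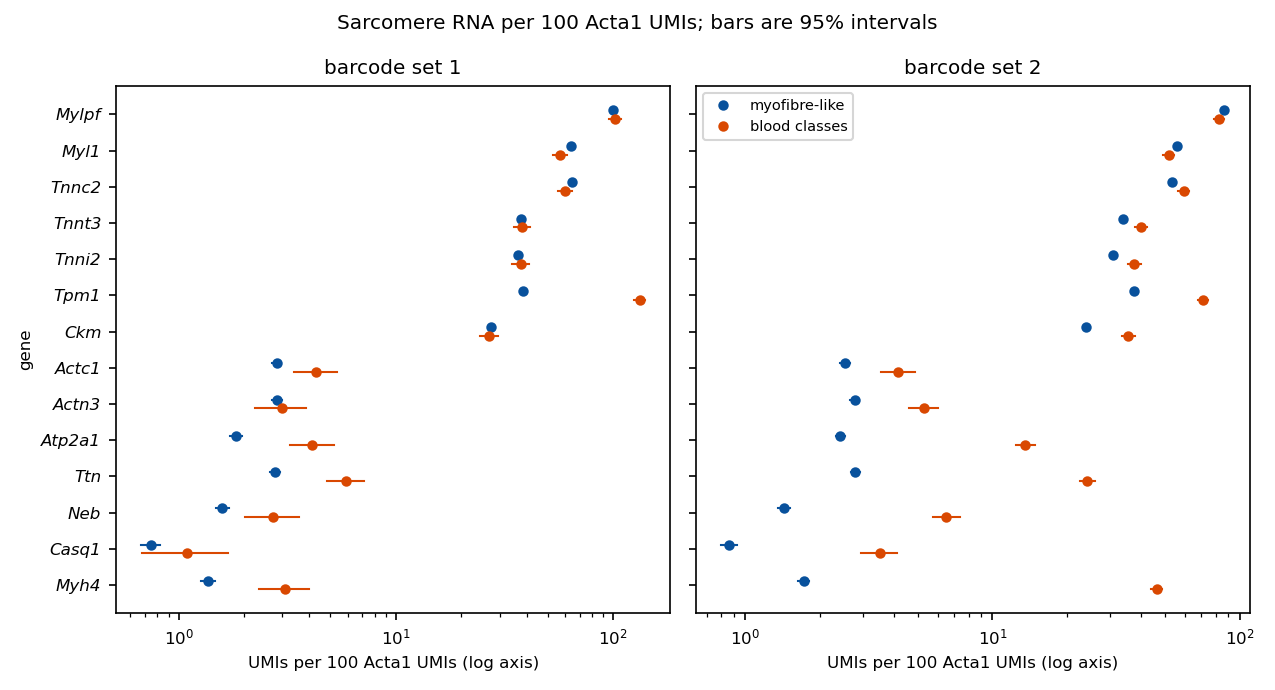
UMIs of 14 members per 100 Acta1 UMIs (log axis) in myofibre-like (blue) and blood cells (orange), in barcode set 1 (left) and set 2 (right), with 95% intervals. Mylpf and Myl1 lie together in both sets, and Myh4 lies at 1.72 in myofibre-like and 46.1 in blood cells of set 2.

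Genes that work beside the 36 were read from lists. Of 23 other sarcomere genes tested, 19 were higher and 0 lower in myofibre-like than in other muscle cells. Over all genes in this comparison, 8.08% were higher and 67.4% lower. Among the other sarcomere genes, Myoz1, a Z-disc protein of fast fibres, stood at 2011 CPM against 3.58 CPM, and Pdlim3, a Z-disc linker, at 480.1 CPM against 12.6 CPM. Between myoblast-like and satellite-like cells, 5 of 10 were higher and 1 lower, beside 4.67% and 17.0% of all genes. Lmod2, which lengthens thin filaments, stood at 159 CPM in myoblast-like and 7.32 CPM in satellite-like cells, whereas the lower gene, Tpm3, stood at 76.1 and 167 CPM. All 12 muscle energy genes tested were higher in myofibre-like cells, led by Gapdh (8337 CPM, ratio 5.47), Aldoa (7001 CPM, 15.1) and Slc25a4 (5776 CPM, 11.6), and 3 of 8 were higher in myoblast-like than in satellite-like cells.

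Of 15 excitation-contraction and calcium genes tested, 9 were higher and 4 lower in myofibre-like cells. Over all genes, 8.08% were higher and 67.4% lower, so the share of lower genes here was below that background. Sln, a small inhibitor of the calcium pump, stood at 1299 CPM in myofibre-like and 14.97 CPM in other muscle cells. Mrln and Jph1, another pump inhibitor and a membrane linker, had ratios of 4.05 and 4.28. Atp2a2, a pump of slow and cardiac muscle, was lower (20.9 CPM against 176 CPM). Its RNA was not particular to muscle, at 158 CPM in muscle and 140 CPM in all other cells. Between myoblast-like and satellite-like cells, 7 of 13 were higher, beside 4.67% of all genes. Among them were Jsrp1, Srl, Stac3 and Jph2 with ratios of 2.91, 6.27, 5.25 and 3.19. In muscle against all other cells, 20 of 24 other sarcomere genes, all 12 energy genes and 14 of 16 excitation-contraction genes were higher, and none was lower. Over all genes in that comparison, 13.0% were higher and 26.8% lower.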

How the data were processed

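Gene expression was measured by 3' single-cell RNA sequencing with the 10x Genomics v3 chemistry, per the labels' protocols. Reads were aligned, counted and merged with Cell Ranger 7.0.0, per the labels' protocols, to the build mm10, per the submitters' processing notes. The authors deposited raw UMI counts, whole numbers with no normalisation, for 32285 genes in 24203 barcodes. The sources used here do not say whether intronic reads entered these counts. Because barcode endings are not tied to genotype, the comparison of Col12a1 KO with WT was not run.

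The filter asked for at least 500 genes, 1000 UMIs and no more than 10% mitochondrial UMIs, which 15174 cells passed. Scrublet called 3 of them, which were left out; a rate of 0.0279% in set 1 and 0.0125% in set 2 means that doublets were in effect not removed. Log counts per 10000 of the 2000 most variable genes were reduced to 30 components, and Leiden clustering of a graph of 15 neighbours (resolution 1, seed 1) gave 33 clusters (scanpy 1.11.5, leidenalg 0.10.2, Python 3.11.15). Clustering did not see the 36 members or the mitochondrial, ribosomal and sex-linked genes (158 in all). A cluster took the name of the class with the highest mean marker log2 fold if the median reached 1 and so did 3 markers found in 10% or more of its cells, with 10 CPM added to both sides. Clusters 9, 13, 20 and 25 stayed unnamed. No member is a marker of a muscle class. Red cell, neutrophil, fibroblast and other markers in the muscle classes were checked, and several were present. Neutrophil markers summed to 799 CPM in myofibre-like cells (1668 CPM in set 1 and 147 CPM in set 2). Pericyte or smooth muscle markers summed to 1627 CPM in myoblast-like and 967 CPM in satellite-like cells. Tenocyte or ligament markers summed to 819 CPM in satellite-like cells. The part of these RNAs in the results was not tested.

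Poisson, Clopper-Pearson and conditional binomial intervals are exact 95% intervals and reflect nothing but counting error (scipy 1.17.1). A count of 0 was set to 3 counts for bounds. Cells are not replicates, and barcode sets were used only as a check of direction. Shares of cells with a UMI were computed after thinning to 2000 UMIs. The steps were tested on simulated data. Gene positions come from GENCODE M21, in which 32158 feature IDs were found, and promoters from RefSeq (GRCm38.p6). The members and gene lists were chosen with earlier results of these data known. All 36 members are named. Of each other list up to 4 genes past the size rule with the most UMIs in muscle cells are named, beside the genes leading each muscle cluster; Acta2, Myf6, Ankrd1, Tnni3, Ube2c and Myl12a were named after their values were seen. Alternatives were other cell filters, clusterings, size rules, thinning depths, a subtraction of the blood level and single barcode sets.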

Additional observations from a re-analysis of the deposited data

Results flagged for a closer look

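Sarcomere RNA also appeared outside the cells described above. Among the 9029 barcodes left out by the cell filter, 311 (112 in set 1 and 199 in set 2) had at least 10% of their UMIs from the 36 genes, against a share of 0.0959% in the blood classes. Of the barcodes that were kept, 239 reached that share. The 311 barcodes had a median of 863 UMIs and 350 genes, and 3.96% mitochondrial UMIs; 296 of them had under 500 genes and 74 had over 10% mitochondrial UMIs. Their sarcomere share ran from 10.1% to 38.7%, with a median of 22.5%. Acta1 was 18.4% of their sarcomere UMIs and 20.6% of those of myofibre-like cells, and Mylpf 18.2% and 18.9%. Myh4 was 0.952% and 0.326%, Ttn 1.08% and 0.574%, and Myl2 0.396% and 0.177%. Whether these barcodes are broken fibres, nuclei or shallow cells was not tested.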

How the results depend on the processing

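No paired analysis was possible because the matrix carries no replicate numbers and its barcode sets are not tied to a genotype. Under 19 alternatives the number of members called higher stayed within 1.5 times of the reported value: 28 to 32 in myofibre-like against other muscle cells, 33 to 36 in muscle against all other cells and 12 to 21 in myoblast-like against satellite-like cells. From 0 to 1, 0 and 0 to 2 members were lower in these comparisons, and with a fold of 4 the lower call of Mybpc1 in myoblast-like cells was lost (0 members lower). The share of all genes past the size rule, higher or lower, moved as well. In the same order of comparisons it ran from 48.8% to 84.8%, from 20.6% to 64.3% and from 7.31% to 42.3%. The sarcomere share of myofibre-like UMIs, 29.7% as reported, moved beyond its counting interval but stayed between 25.8% and 30.4%: it was 27.7% with at least 1000 genes and 2000 UMIs per cell, 27.1% with at least 200 genes and 500 UMIs, 30.1% and 29.8% with at most 5% and 20% mitochondrial UMIs, 29.97% and 29.95% at resolutions 0.5 and 2, 29.2% with 15 components, 25.8% with the members in the clustering, 29.97% with Scrublet calls kept, 28.8% in set 1 alone, 30.4% in set 2 alone, 29.6% with the blood level subtracted, and 29.99% without muscle sub-clusters 5, 6 and 7, a choice made after seeing the data. The satellite-like sarcomere share, 0.146% as reported, ran from 0.0784% with the blood level subtracted to 0.172% with 15 components, and the myoblast-like share from 0.572% to 0.811%. Myh4 was 63.5% of myofibre-like heavy chain UMIs in set 1 alone, 77.3% in set 2 alone and 69.3% as a mean over cells. The share of myoblast-like cells with Actc1, 67.8% as reported, was 79.9% with at least 1000 genes and 2000 UMIs, 76.6% with at most 20% mitochondrial UMIs, 79.7% at resolution 0.5, 85.6% with 15 components, 80.5% with the members in the clustering, 77.4% with another seed, 80.1% with Scrublet calls kept, 56.9% thinned to 1000 UMIs and 81.2% thinned to 5000. Fewer cells carried the myoblast-like name in several of these (250 with 15 components, 345 with another seed, 408 as reported). The number of mostly slow cells was 18 with at least 200 genes and 500 UMIs, and 2 in set 1 alone. Depth limits heavy chains most: Myh2, Myh3 and Myh7 have under 100 UMIs in myofibre-like cells. Doublets, free RNA and the mixing of both genotypes limit every value.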

Other observations

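Other gene lists were read in the same comparisons. All 10 cell cycle genes were lower in myofibre-like than in other muscle cells, beside 67.4% of all genes tested, and 9 of 10 were lower in myoblast-like than in satellite-like cells, beside 17.0% of all genes. Top2a stood at 14.2 CPM in myoblast-like and 392 CPM in satellite-like cells, and Mki67 at 28.4 and 270.5 CPM. Of 12 myogenic transcription factors tested, 2 were higher and 7 lower in myofibre-like cells, a share of lower genes no larger than over all genes. Between myoblast-like and satellite-like cells, 5 of 11 were higher and 2 lower, beside 4.67% and 17.0% of all genes. These counts include Pax7, Myf5, Myog and Mef2c, which are among the markers that named the classes, so the calls of these genes are no result. Outside them, Myf6, a factor of mature fibres, stood at 91.3 CPM in myofibre-like and 2.27 CPM in other muscle cells, and Myod1 at 49.1 and 249.96 CPM. Mef2a stood at 307 CPM in myoblast-like and 90.1 CPM in satellite-like cells.

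Of 11 cytoplasmic actomyosin genes, 10 were lower and 0 higher in myofibre-like than in other muscle cells, beside 67.4% and 8.08% of all genes. Actb stood at 279 CPM in myofibre-like and 2184 CPM in other muscle cells, and Actg1 at 164 and 913 CPM. Between myoblast-like and satellite-like cells 2 of 11 were lower, about the share over all genes (17.0%): Tpm4 (43.9 and 184 CPM) and Myh10 (20.1 and 56.1 CPM). Of 5 smooth muscle contractile genes tested, 3 were higher and 2 lower in myofibre-like cells, beside 8.08% and 67.4% of all genes. In myoblast-like against satellite-like cells, 2 of 4 were higher and 1 lower, beside 4.67% and 17.0% of all genes. Acta2, smooth muscle actin, stood at 231 CPM in myofibre-like, 1576 CPM in myoblast-like and 729.6 CPM in satellite-like cells. Of the cardiac genes, 3 of 3 tested were higher in muscle than in all other cells, beside 13.0% of all genes. They were Ankrd1 (80.7 and 0.980 CPM), Csrp3 (22.6 and 0.335 CPM) and Tnni3 (1.58 and 0.371 CPM). The rest of the list had too few UMIs to be tested. In muscle and in all other cells, Nppb had 0 and 55 UMIs, Mybpc3 4 and 94, and Myh6 4 and 33. Nppa had 3 and 3, Myl7 0 and 2, and Nkx2-5 0 and 5.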
